A study of Mus musculus with 12 samples.

Results

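The hepatocyte moves bile salts and organic anions from blood to bile with a small set of membrane carriers, and 10 of their genes were examined among the 25611 genes counted in whole mouse liver. The genes were taken by symbol: Slco1a1, Slco1a4, Slco1b2 and Slco2b1, Slc10a1, Abcb11, Abcb4, Abcc2, Abcc3 and Abcc4. Each symbol matched 1 gene, and all 10 passed the low-count filter that left 13190 genes for testing.

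Livers of male C57BL/6J mice aged 8 to 10 weeks were compared at 30 hr post-surgery in 3 groups of 4 mice. CLP mice had the cecum ligated and punctured, which releases gut bacteria into the abdomen and causes sepsis. Sham mice had the abdominal incision alone, and every animal received subcutaneous saline. CLP+DCA mice were CLP mice given dichloroacetate (DCA), an inhibitor of pyruvate dehydrogenase kinases, at 25 mg/kg intraperitoneally 24 hr after surgery and 6 hr before collection. Whether sham and CLP mice received a vehicle injection is not given in the sources used here, and no sham group with DCA was among the samples analysed, so the effect of DCA was seen in septic mice alone. Each library came from 1 mouse. RNA came from the whole organ, so fewer cells of a type and less RNA per cell cannot be told apart.

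Bile formation begins at the sinusoidal (basolateral) membrane, which faces the blood. There SLC10A1 (NTCP) takes up conjugated bile salts with sodium, and the organic anion transporting polypeptides (OATPs, encoded by Slco genes) take up bilirubin conjugates, steroid conjugates, bile acids and many drugs without it. At the canalicular membrane, which faces the bile, ABCB11 (BSEP) pumps bile salts, ABCB4 (MDR2) moves phosphatidylcholine and ABCC2 (MRP2) exports bilirubin glucuronide and glutathione conjugates. ABCC3 and ABCC4 (MRP3 and MRP4) return conjugates and bile acids to the blood. Loss of bile flow during infection is a known clinical feature of sepsis, and several of these genes are classical targets of nuclear receptors in the liver.

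The upstream sequences of 4 genes are shown because the genes span the range of change found between CLP and sham, from Slco1a1 (lowest) and its neighbour and close relative Slco1a4, through Abcb11, to Abcb4, whose fold change was nearest to 0. Slco1a1 was given by the rule for sequences, and the other windows were chosen after their values were seen, since no gene of the set was higher in CLP. Each sequence is the 250 bases before the annotated start of transcription, taken from RefSeq on GRCm38.p6 and written 5′ to 3′ on the strand of the gene. Capitals mark matches, on either strand, to any of 5 searched motifs.
Slco1a1, chr6:141946963-141947212, minus strand: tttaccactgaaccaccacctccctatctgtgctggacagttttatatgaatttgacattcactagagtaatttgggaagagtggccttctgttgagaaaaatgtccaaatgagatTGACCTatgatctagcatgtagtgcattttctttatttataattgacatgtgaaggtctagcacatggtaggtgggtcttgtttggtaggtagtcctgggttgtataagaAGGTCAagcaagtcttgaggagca
Slco1a4, chr6:141856221-141856470, minus strand: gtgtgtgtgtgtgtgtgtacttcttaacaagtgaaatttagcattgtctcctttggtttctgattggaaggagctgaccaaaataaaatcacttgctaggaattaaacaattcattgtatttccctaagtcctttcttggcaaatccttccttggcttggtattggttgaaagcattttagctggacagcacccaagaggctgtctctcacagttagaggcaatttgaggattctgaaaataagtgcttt
Abcb11, chr2:69342617-69342866, minus strand: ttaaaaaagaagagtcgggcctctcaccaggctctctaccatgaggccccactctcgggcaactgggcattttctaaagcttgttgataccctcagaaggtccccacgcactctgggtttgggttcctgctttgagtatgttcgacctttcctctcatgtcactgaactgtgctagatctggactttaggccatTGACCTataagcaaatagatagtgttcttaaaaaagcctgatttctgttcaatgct
Abcb4, chr5:8893471-8893720, plus strand: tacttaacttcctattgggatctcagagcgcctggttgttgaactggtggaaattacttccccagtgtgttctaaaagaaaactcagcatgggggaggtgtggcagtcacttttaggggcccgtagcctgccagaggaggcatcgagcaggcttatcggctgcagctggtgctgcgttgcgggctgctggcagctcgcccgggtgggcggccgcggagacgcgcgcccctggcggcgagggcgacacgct
The Slco1a1 window held 2 matches to AGGTCA, the core hexamer of many nuclear receptor sites, at positions -134 to -129 and -24 to -19 from the start. The Abcb11 window held 1, at -56 to -51, and the windows of Slco1a4 and Abcb4 held no match to any of the 5 motifs.

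Windows were found for 9 of the 10 genes, all but Abcc3, and some genes had several annotated starts, giving 13 windows. AGGTCA was present in 5 of the 13 windows and in 14% of all 32851 windows of the same length. The core of the NRF2 response element, TGACNNNGC, was in 3 of 13 (10.2% of all windows), with a match in both windows of Abcc4 and in that of Abcc2. The STAT3 motif TTCNNNGAA was in 3 of 13 (7.02%), the C/EBP motif TTGCNNAA in 2 (9.56%) and the HNF1 core GTTAAT in 1, that of Slco1b2 (6.43%). These are letter matches on both strands, not measured binding, and windows of 1 gene are not independent.

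Levels are given in CPM, read counts scaled to a common library total with TMM factors, and were divided by exon length to compare genes. Per kilobase of exon, Slc10a1 stood at 183 ± 16.7 CPM (SD, n = 4) in sham and Slco1b2, the mouse OATP nearest to the human liver OATPs, at 173 ± 31.9 CPM, and their ranges overlapped. Abcb11 followed at 109 ± 10.2 CPM per kb, below both and above all others in each sham mouse. Slco1a1 (46.2 ± 9.86 CPM per kb), Abcc2 (45.5 ± 4.47 CPM per kb) and Abcc3 (38.5 ± 6.03 CPM per kb) formed a middle group in which each overlapped the next. Below these were Slco2b1 (28.0 ± 1.67 CPM per kb), Abcb4 (17.5 ± 3.45 CPM per kb), Slco1a4 (7.36 ± 2.37 CPM per kb) and Abcc4 (0.33 ± 0.090 CPM per kb), whose ranges did not overlap in sham. In CLP the order changed most for Slco1a1, which stood at rank 4 of the 10 in sham and at rank 8 in CLP (6.53 ± 3.57 CPM per kb), beneath Abcb4. In CLP+DCA Slco1a1 held rank 7, at 18.9 ± 12.8 CPM per kb.

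**Figure D1:**
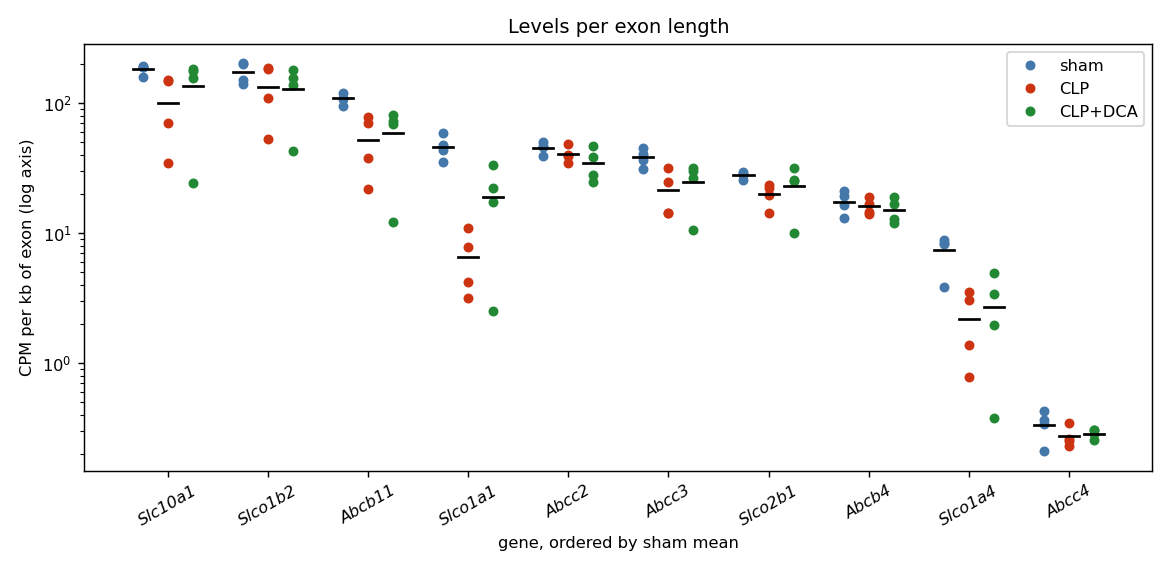
CPM per kilobase of exon (log axis) of the 10 genes, ordered by the sham mean, with 1 point per mouse and bars at the group means (blue sham, red CLP, green CLP+DCA, n = 4 each). Slc10a1 and Slco1b2 lead in sham, at 183 and 173 CPM per kb, and Slco1a1 drops from 46.2 CPM per kb in sham to 6.53 CPM per kb in CLP.

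Libraries held 24436513 to 44266819 reads, and 3 of the 12 stood apart for these genes. CLP replicates 2 and 4 and CLP+DCA replicate 3 held the 3 lowest values for 7 of the 10 genes, all but Abcb4, Abcc2 and Abcc4, and CLP+DCA replicate 3 was lowest of all for 8. Their 10 genes summed to 1067, 1597 and 831 CPM, against 2151 to 3306 CPM in the other mice. These livers also stood apart over all genes. Their TMM factors were 0.855, 0.867 and 0.918, against 0.981 to 1.085 in the other mice. Chi-square per degree of freedom between the counts of 2 mice grows with depth. It was 462 to 646 for CLP+DCA replicate 3 against the rest of its group and 24.7 to 65.4 within that rest. CLP replicates 2 and 4 differed by 32.6 from each other and by 119 to 295 from CLP replicates 1 and 3. The hepatocyte markers (12 genes, Alb and Apob most abundant, none at 0 in any mouse) summed to 29259, 38338 and 25701 CPM in those 3 livers, to 39084 to 50369 CPM in the other 5 septic livers and to 55398 to 77765 CPM in sham, so that CLP replicate 4 was close to the other CLP livers. Alb alone made up most of these sums, with means of 46672 CPM in sham and 21571 CPM in CLP. In CLP versus sham, 8 of the 12 marker genes had lower estimates and 4 higher, Apob and Hnf4a among the higher. The cholangiocyte markers (7 genes, Spp1 and Sox9 most abundant) summed to 91.5, 96.4 and 213 CPM in the 3 livers, against 38.5 to 70.5 CPM in the other 5 septic livers and 34.4 to 43.8 CPM in sham, and at most 2 of the 7 were at 0 in a mouse. Spp1 and Sox9 made up most of these sums, reaching 139 and 71.0 CPM in a mouse. All 5 markers tested had higher estimates in CLP than in sham, but 4 of the 5 were lower in CLP+DCA than in CLP. Krt19 was lower in every CLP+DCA mouse, replicate 3 included, than in every CLP mouse (means 0.754 and 1.90 CPM). The neutrophil markers (12 genes, S100a9 and S100a8 most abundant) summed to 46.2, 35.2 and 61.4 CPM in the 3 livers, against 32.2 and 37.6 CPM in CLP replicates 1 and 3, 6.77 to 14.4 CPM in the other CLP+DCA livers and 6.46 to 9.30 CPM in sham, with at most 3 of 12 at 0. The neutrophil sums were thus above sham in all 4 CLP livers. Of the 10 markers tested, 9 had higher estimates in CLP than in sham, and Ly6g was lower (means 0.459 and 0.823 CPM). Hnf4a, a transcription factor of the hepatocyte, was 803, 687 and 808 CPM in the 3 livers and 671 to 765 CPM in sham. CLP replicates 2 and 4 were also the shallowest CLP libraries (24436513 and 25683615 reads), whereas CLP+DCA replicate 3 was the deepest of its group (40251177 reads). The part of cell composition, RNA quality and depth in the low values of these mice was not tested.

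**Figure D2:**
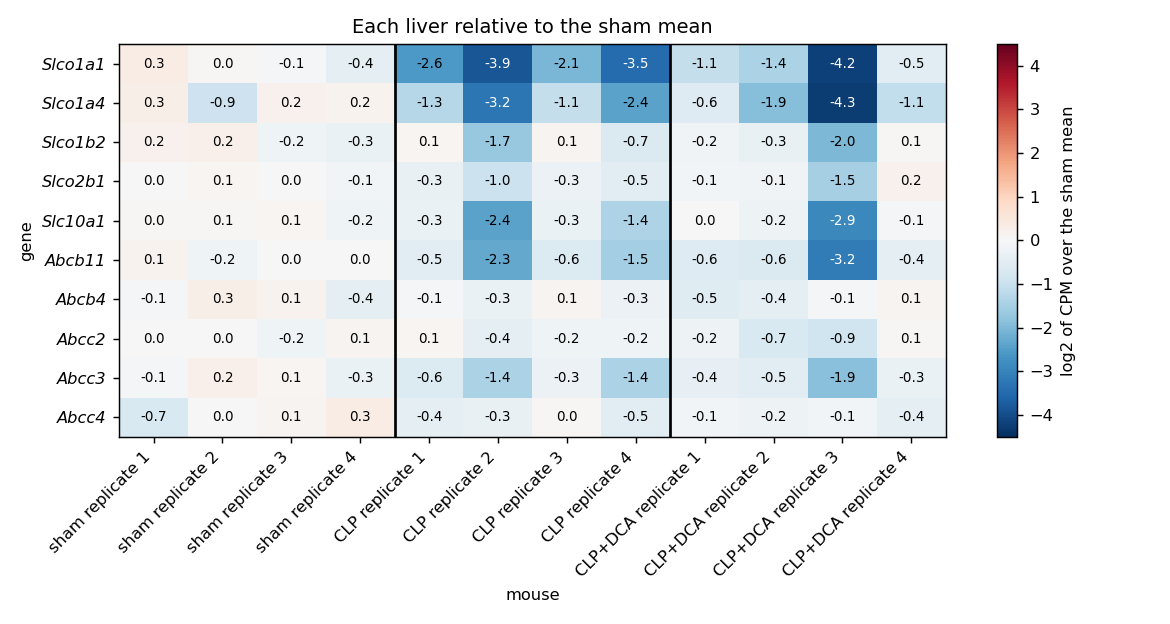
Heat map of each mouse (columns) and gene (rows) as the log2 of its CPM over the sham mean, blue for lower and red for higher. CLP replicates 2 and 4 and CLP+DCA replicate 3 are the darkest columns, and the rows of Abcb4, Abcc2 and Abcc4 stay pale in all 12 mice.

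To ask how sepsis altered the transporter genes, CLP was compared with sham. All 10 genes had a negative log2 fold change, with a median of -0.67 against 0.02 over all 13190 genes tested. Of the 10, 1 passed the FDR of 0.05, Slco1a1, beside 2.78% of all genes (367 genes). At an unadjusted p under 0.05 there were 3 of the 10, near the 28.6% of all genes tested. The 4 CLP mice were all below the 4 sham mice for 5 of the 10, Slco1a1, Slco1a4, Slco2b1, Slc10a1 and Abcb11, whereas groups did not overlap, in either direction, for 26.5% of all genes tested.

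**Figure D3:**
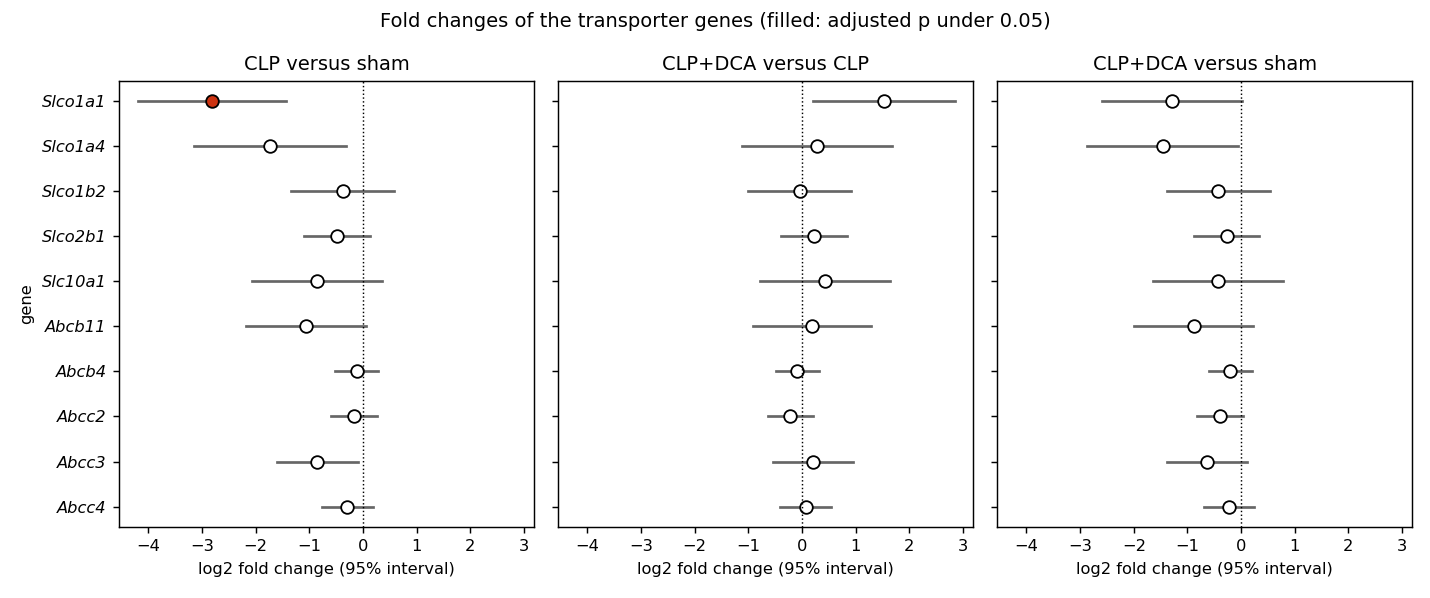
Log2 fold change with its 95% confidence interval for each gene in the 3 comparisons, from edgeR, filled where the adjusted p was under 0.05. The single filled point is Slco1a1 in CLP versus sham, at -2.82, and every point of CLP versus sham and of CLP+DCA versus sham lies left of 0.

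Among the uptake carriers, Slco1a1 (NCBI Gene 28248, chr6:141907281-141946962 on mm10), which carries steroid conjugates and bile acids, changed most. It was 309, 252, 228 and 185 CPM in sham replicates 1 to 4 and 40.9, 16.8, 58.1 and 22.0 CPM in CLP replicates 1 to 4. The highest CLP mouse thus lay far below the lowest sham mouse. Its log2 fold change was -2.82 (SE 0.63, 95% interval -4.19 to -1.44, adjusted p = 0.0444), or 7.05-fold lower. With any single mouse left out the change was -3.19 to -2.59, its direction being fixed by the gap between the groups. In 9 of those 12 fits, however, the adjusted p rose to between 0.0618 and 0.127. These 9 left out any of the 4 sham mice, CLP replicate 1, 2 or 4, or CLP+DCA replicate 1 or 2. With CLP replicates 2 and 4 and CLP+DCA replicate 3 all left out, the change was -2.30. These 3 mice were picked for their low values of the genes described. Leaving them out keeps 2 CLP and 3 CLP+DCA mice and narrows the spread by construction. Fold changes without them are therefore given as sizes alone, with no p-value, and counts of genes called without them carry no weight.

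Slco1a4 (28250, chr6:141805440-141856220), an OATP of bile acids and cardiac glycosides that lies beside Slco1a1, was 57.2, 24.6, 53.9 and 53.1 CPM in sham and 19.4, 4.98, 22.6 and 8.89 CPM in CLP. Every CLP mouse was lower than every sham mouse, although sham replicate 2 stood just above the highest CLP mouse. The log2 fold change was -1.74 (SE 0.65, 95% interval -3.16 to -0.32, adjusted p = 0.114). DESeq2, the tool of the study, called it on the same 12 mice (adjusted p = 0.0329). Slco1a1 and Slco1a4 share 33 stretches of 100 bases, of 5371 in Slco1a1 and 6407 in Slco1a4, so few reads of that length could have come from either gene. The nearby relatives, Slco1a5 and Slco1a6, held 0 and 5 reads over all mice.

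The other OATPs moved less. Slco1b2 (28253, chr6:141629518-141686635) was 979, 998, 743 and 695 CPM in sham and 899, 261, 925 and 542 CPM in CLP, so that 2 CLP mice were within the sham range and 2 below it. It had a log2 fold change of -0.38 (SE 0.44, 95% interval -1.34 to 0.58, adjusted p = 0.575), and the change was 0.10 with the 3 lowest mice left out. Slco2b1 (101488, chr7:99657804-99711340), an OATP of steroid sulfates and drugs, was 169, 177, 167 and 153 CPM in sham and 132, 85.6, 140.0 and 117 CPM in CLP, without overlap. It varied least among sham mice, with a coefficient of variation of 5.96%, and its log2 fold change was -0.49 (SE 0.28, 95% interval -1.11 to 0.12, adjusted p = 0.257).

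Because ratios of 2 genes in a mouse do not depend on the scaling of libraries, the OATP genes were also set against each other. Slco1a1 per Slco1b2 was 0.316, 0.253, 0.307 and 0.265 in sham and 0.0455, 0.0643, 0.0627 and 0.0406 in CLP. The 4 CLP ratios lay close together although the CPM of Slco1a1 differed 3.45-fold and that of Slco1b2 3.54-fold among the same 4 mice. Slco1a4 per Slco1b2 was 0.0584, 0.0246, 0.0725 and 0.0764 in sham and 0.0216, 0.0191, 0.0244 and 0.0164 in CLP, separated only by the narrow gap at sham replicate 2. These ratios were chosen after the values were seen and are given without a test.

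Slc10a1 (20493, chr12:80953185-80968079), which encodes the main bile salt uptake carrier, was 415, 418, 428 and 348 CPM in sham. In CLP it was 329, 75.8, 327 and 154 CPM. The groups did not overlap, but 2 CLP mice lay just below the lowest sham mouse and 2 far below it. In log2 terms the change was -0.86 (SE 0.56, 95% interval -2.08 to 0.36, adjusted p = 0.310). It was -0.29 with CLP replicates 2 and 4 and CLP+DCA replicate 3 left out.

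**Figure D4:**
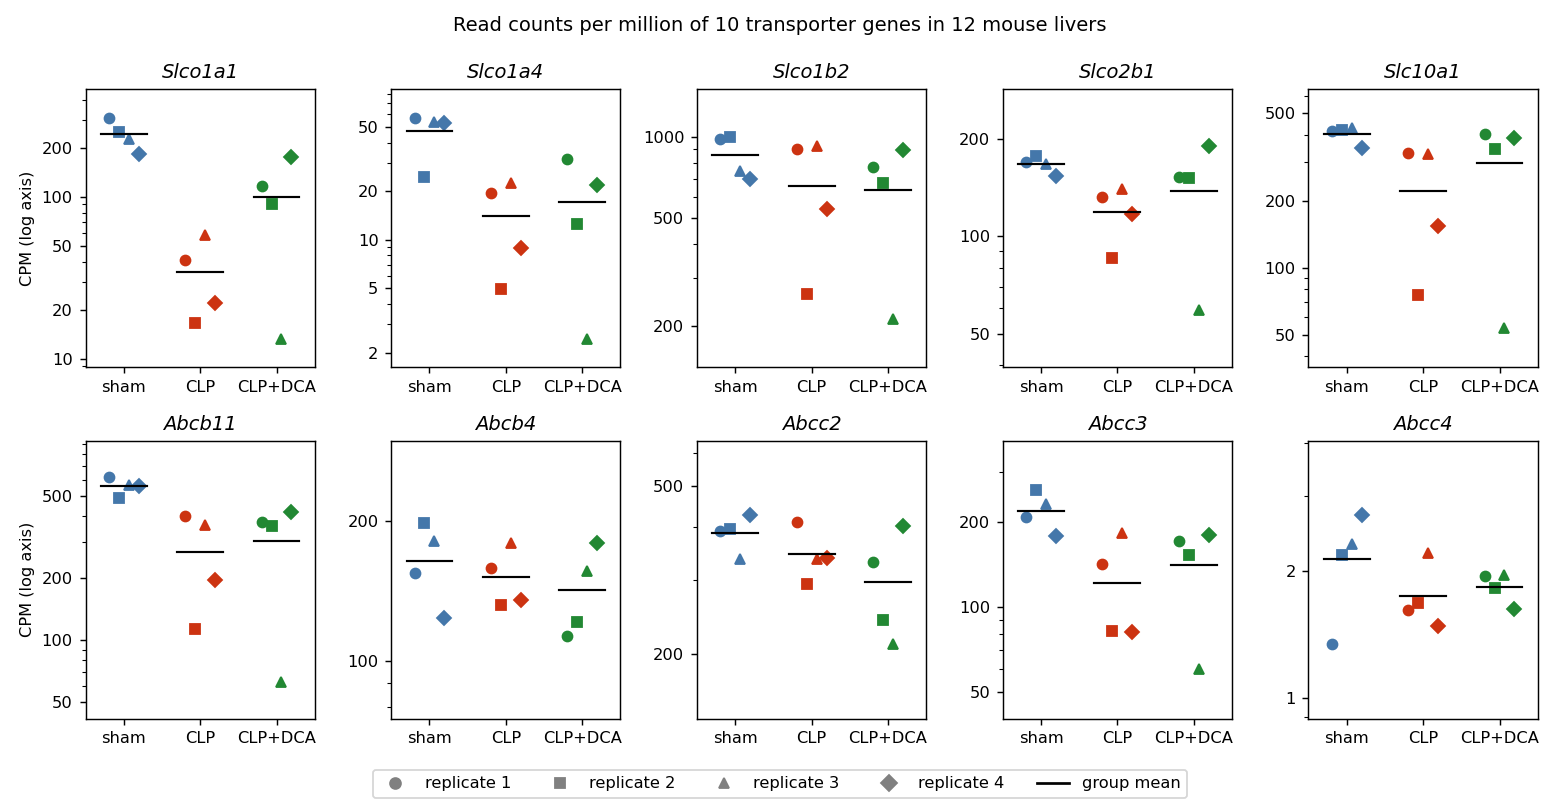
CPM (log axis, own scale per panel) of each gene in each of the 12 mice, with symbols for replicate numbers and bars at the group means. Slco1a1, Slco1a4, Slco2b1, Slc10a1 and Abcb11 show no overlap between sham and CLP, and CLP+DCA replicate 3 (green triangle) is the lowest of the 12 points in 8 of the 10 panels.

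At the canalicular membrane the 3 exporters differed in their values. Abcb11 (27413, chr2:69238282-69342616), encoding the bile salt export pump, was 620.2, 493, 567 and 558 CPM in sham and 399.5, 113, 362 and 196 CPM in CLP, without overlap. Its log2 fold change was -1.06 (SE 0.51, 95% interval -2.18 to 0.05, adjusted p = 0.190). With the 3 lowest mice left out the change was -0.55.

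Abcb4 (18670, chr5:8893721-8959226), the phosphatidylcholine flippase, was 154, 198, 181 and 124 CPM in sham and 158, 132, 179 and 136 CPM in CLP. All 4 CLP mice were inside the sham range, and the log2 fold change was -0.12 (SE 0.18, 95% interval -0.52 to 0.28, adjusted p = 0.678). Abcc2 (12780, chr19:43782308-43838218), the conjugate exporter, was 393, 396, 336 and 428 CPM in sham and 412, 294, 336 and 338 CPM in CLP, with 2 CLP mice below the lowest sham mouse. Its log2 fold change was -0.17 (SE 0.19, 95% interval -0.60 to 0.25, adjusted p = 0.564). Both intervals leave out a 2-fold fall. Abcb4 shares 11 of its 9372 stretches of 100 bases with its relative Abcb1a.

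Within a mouse, Abcb11 kept pace with Slc10a1 between sham and CLP but not with the other canalicular genes. Abcb11 per Slc10a1 ranged from 1.18 to 1.60 in sham and from 1.11 to 1.5 in CLP. Abcc2 per Abcb11 was 0.633, 0.805, 0.594 and 0.767 in sham and 1.03, 2.59, 0.928 and 1.73 in CLP, without overlap. Abcb4 per Abcb11 was 0.222 to 0.401 in sham and 0.395 to 1.16 in CLP, where 1 CLP mouse reached into the sham range. These ratios restate the values of the single genes given above. They too were chosen after the values were seen and are given without a test.

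**Figure D5:**
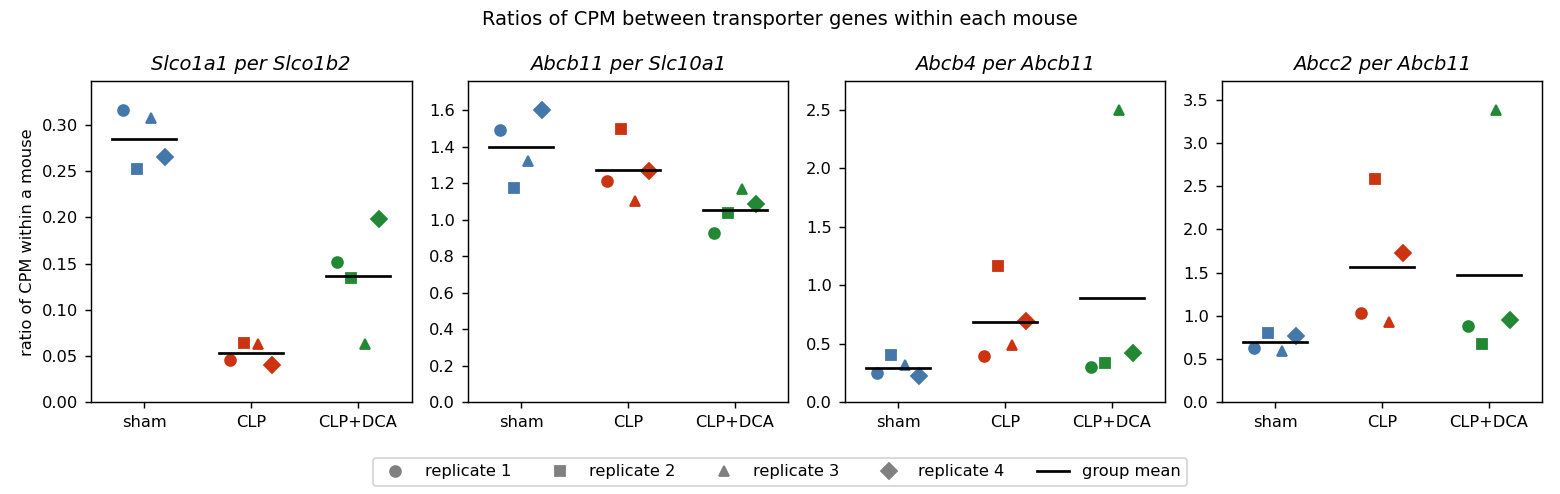
Ratios of CPM between pairs of genes within each mouse (linear axes from 0, bars at the group means). Slco1a1 per Slco1b2 is 0.253 to 0.316 in sham, 0.0406 to 0.0643 in CLP and 0.0633 to 0.198 in CLP+DCA, and the ratios of Abcb4 and Abcc2 to Abcb11 are highest in CLP replicate 2 and CLP+DCA replicate 3.

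No rise was measured for the basolateral exporters in CLP. Abcc3 (76408, chr11:94343295-94392976) was 208, 259, 231 and 178 CPM in sham and 141, 82.0, 182 and 81.3 CPM in CLP, and CLP replicate 3 alone lay inside the sham range. This was a log2 fold change of -0.85 (SE 0.34, 95% interval -1.60 to -0.10, adjusted p = 0.135). Abcc4 (239273, chr14:118482692-118706219) was barely counted, with 33 to 99 reads per mouse. It was 1.34, 2.18, 2.31 and 2.71 CPM in sham and 1.61, 1.68, 2.20 and 1.48 CPM in CLP, and sham replicate 1 was the lowest of all 12 mice. The log2 fold change of Abcc4 was -0.29 (SE 0.22, 95% interval -0.76 to 0.18, adjusted p = 0.375).

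The number of genes called in CLP versus sham depended on the tool and on the mice in the fit. DESeq2 called 2 of the 10 genes on all 12 mice, where it called 1894 genes, 10.1% of those with a read. On the 8 sham and CLP mice alone it called 5 of the 10, namely Slco1a1, Slco1a4, Slco2b1, Abcb11 and Abcc3. It then called 3428 genes, 18.5% of those with a read. Genes with a read are a wider set than those that passed the filter of edgeR, so the shares of the 2 tools are not on the same base. edgeR on those 8 mice called 3, Slco1a1, Slco1a4 and Slco2b1, beside 2387 genes, 18.3% of those that passed its filter. The same 5 genes as with DESeq2 on those 8 mice were called by edgeR when CLP+DCA replicate 3, which enters this comparison through the estimate of the spread, was left out, and 23.8% of genes were then called. That mouse was low in these genes, so leaving it out narrows the spread by construction.

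To ask whether DCA given after the onset of sepsis changed the transporter genes, CLP+DCA was compared with CLP. None of the 10 genes passed the FDR (1 at an unadjusted p under 0.05, beside 10% of all genes, and 0 with DESeq2 on 12 or on 8 mice), and 0.00758% of all genes did (1 gene). The groups overlapped for all 10, whereas they did not overlap for 4.37% of all genes. The estimate was positive for 7 of the 10, with a median log2 fold change of 0.20 against 0.01 over all genes.

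Slco1a1 had the largest estimate. In CLP+DCA replicates 1 to 4 it was 117, 91.2, 13.4 and 176 CPM, so that 3 mice lay above the highest CLP mouse and replicate 3 below the lowest. The log2 fold change against CLP was 1.53 (SE 0.60, 95% interval 0.21 to 2.84, adjusted p = 0.437). Without CLP+DCA replicate 3, the lowest mouse of its group, it was 1.89 (adjusted p = 0.0322, with 4.64% of genes called), and without that mouse and CLP replicates 2 and 4 it was 1.37. Leaving out the lowest mouse raises the mean of its group and narrows its spread by construction, so this p-value supports no call. Slco1a1 per Slco1b2 was 0.152, 0.135, 0.0633 and 0.198 in CLP+DCA, between the sham and the CLP ranges in 3 mice and within the CLP range in replicate 3.

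Slco2b1 and Slc10a1 shared the pattern of 3 mice above the highest CLP mouse. Slco2b1 was 152, 151, 59.3 and 189.8 CPM and Slc10a1 404, 345, 53.5 and 386 CPM in CLP+DCA replicates 1 to 4. Their log2 fold changes were 0.22 (SE 0.28, 95% interval -0.39 to 0.83, adjusted p = 0.83) and 0.42 (SE 0.55, 95% interval -0.79 to 1.63, adjusted p = 0.83). For both, CLP+DCA replicate 3 was the lowest of all 12 mice. The CLP+DCA values of Slco1a4 were 31.7, 12.6, 2.44 and 21.9 CPM and those of Slco1b2 769, 676, 211 and 891 CPM, overlapping the CLP range, with replicate 3 below it in both.

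Among the exporters, Abcb11 was 375, 359, 62.4 and 420.2 CPM in CLP+DCA, and its log2 fold change against CLP was 0.18 (SE 0.50, 95% interval -0.92 to 1.28, adjusted p = 0.923). Abcb4 was 113, 121, 156 and 179 CPM and Abcc2 331, 241, 211 and 402 CPM, with log2 fold changes of -0.09 (SE 0.18, 95% interval -0.49 to 0.31) and -0.22 (SE 0.19, 95% interval -0.64 to 0.21). Abcb4 was thus the 1 gene of the set for which CLP+DCA replicate 3 did not stand low among the septic mice while having ample reads. Abcc3 was 171, 153, 60.2 and 179.8 CPM, a log2 fold change of 0.21 (SE 0.34, 95% interval -0.53 to 0.95), and Abcc4 was 1.62 to 1.95 CPM.

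CLP+DCA was also compared with sham, a comparison that shares the sham mice with CLP versus sham and the CLP+DCA mice with CLP+DCA versus CLP. None of the 10 genes passed the FDR (1 at an unadjusted p under 0.05, beside 13% of all genes, and 0 with DESeq2 on 12 or on 8 mice), and 0.0379% of all genes did (5 genes). All 10 estimates were negative, with a median of -0.43 against 0.01 over all genes. The groups did not overlap for 2 of the 10, Slco1a1 and Abcb11, both lower, and for 9.76% of all genes.

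The log2 fold change of Slco1a1 against sham was -1.29 (SE 0.60, 95% interval -2.60 to 0.01, adjusted p = 0.389), beside -2.82 for CLP. That of Slco1a4 was -1.46 (SE 0.64, 95% interval -2.86 to -0.05, adjusted p = 0.377), beside -1.74. Abcb11 was at -0.88 (SE 0.51, 95% interval -1.99 to 0.23, adjusted p = 0.459), beside -1.06. In all 4 CLP+DCA mice Abcb11 lay below the lowest sham mouse, and the change was -0.54 with the 3 lowest mice left out. Abcb11 per Slc10a1 was 0.927 to 1.17 in CLP+DCA, just below the sham range of 1.18 to 1.60.

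Across the 12 mice the log2 CPM of 7 genes, the 4 Slco genes, Slc10a1, Abcb11 and Abcc3, moved together, with Pearson correlations of 0.79 to 0.97 in all 21 pairs. Abcb4 correlated with the other 9 at 0.08 to 0.37, Abcc4 at 0.02 to 0.32 and Abcc2 at 0.02 to 0.74. The 12 points share groups and libraries, and the 3 low mice weigh heavily on them. The genes whose log2 CPM was most like that of Slc10a1, among 9086 genes with a mean of at least 5 CPM, were Pbld2 (r = 0.997), Akr1c6 (0.996), Gamt (0.996), Sord (0.995) and Pon1 (0.995). Gamt makes creatine, Sord oxidises sorbitol and Pon1 encodes the secreted paraoxonase of HDL. With the 3 mice lowest in Slc10a1 left out, the r of these 5 genes was 0.806 to 0.934. For Abcc4 they were Ltbp4 (0.838), Dtnbp1 (0.748), Mapk3 (0.747), Ubxn6 (0.747) and Mcu (0.716). All 5 values for Abcc4, a gene of few reads, were below those for Slc10a1.

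The other genes of these pathways were described from lists. Of 25 other transporters of organic ions and bile lipids, 17 were tested, and 1 was called in CLP versus sham. This was Abcg8, a subunit of the canalicular sterol exporter, at 87.5, 75.3, 81.7 and 106 CPM in sham and 51.5, 54.5, 58.4 and 58.6 CPM in CLP. Its log2 fold change was -0.65 (SE 0.12, adjusted p = 0.0294), the CLP mice differed little from each other, and the change was -0.67 with the 3 lowest mice left out. The call was lost in 7 of 12 fits that left out 1 mouse (adjusted p up to 0.0996), those that left out any of the 4 sham mice or CLP replicate 1, 2 or 4. The median log2 fold change of the 17 was -0.31, and 7 of them had an unadjusted p under 0.05, as had 28.6% of all genes tested.

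Of 19 nuclear receptors and other regulators of transporter genes, all were tested and none was called by edgeR, with a median log2 fold change of -0.11. Nfe2l2, which encodes NRF2, averaged 50.9 ± 5.34 CPM in sham mice and 37.2 ± 3.14 CPM in CLP (log2 fold change -0.45, SE 0.14, adjusted p = 0.0756). Ppara, the fatty acid receptor, averaged 334 ± 58.0 CPM in sham mice and 188 ± 47.6 CPM in CLP (log2 fold change -0.83, SE 0.27, adjusted p = 0.0869). For both, the CLP mice lay below all sham mice. At an unadjusted p under 0.05 there were 7 of the 19, beside 28.6% of all genes. DESeq2 on all 12 mice called 3 of the 19, Nfe2l2 and Ppara included, with adjusted p = 0.0307 for Nfe2l2 and 0.0292 for Ppara. It called 10.1% of all genes with a read, a wider set than the genes tested by edgeR.

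Of 13 genes of the canalicular scaffold and of vesicle traffic, all were tested and none was called by edgeR, with a median log2 fold change of -0.06. At an unadjusted p under 0.05 there were 4 of 13, near the 28.6% of all genes tested. DESeq2 on all 12 mice called 2, beside 10.1% of the wider set of all genes with a read. Slc9a3r1 (EBP50, which anchors carriers to the cytoskeleton) was 299 ± 22.0 CPM in sham, 189.6 ± 39.3 CPM in CLP and 299 ± 50.3 CPM in CLP+DCA. Its log2 fold change was -0.66 (SE 0.16, adjusted p = 0.0541) in CLP versus sham and 0.66 (SE 0.16, adjusted p = 0.242) in CLP+DCA versus CLP. Both values rest on the same CLP mice, with opposite sign. Ezr (ezrin), a scaffold protein more typical of cholangiocytes than of hepatocytes, averaged 4.13 ± 0.31 CPM in sham mice and 8.09 ± 2.01 CPM in CLP (log2 fold change 0.96, SE 0.29, adjusted p = 0.0756). The cholangiocyte markers summed to 62.1 to 96.4 CPM in the same CLP mice and to 34.4 to 43.8 CPM in sham, and their part in the Ezr value was not tested.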

How the data were processed

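RNA of whole livers from 12 mice (4 sham, 4 CLP, 4 CLP+DCA) was sequenced as poly(A) libraries. The deposited read counts per gene (25611 genes, mm10 coordinates) were made by the authors with STAR 2.5 and featureCounts (Subread 1.5.0-p1), and the authors tested genes with DESeq2. The gene annotation and strand setting are not given in the sources used here. Counts were analysed in R 4.3.3 with edgeR 4.0.16: filterByExpr (minimum count 10, 13190 genes kept), TMM, a robust quasi-likelihood fit to all 12 mice, and 3 contrasts at a Benjamini-Hochberg FDR of 0.05 over all genes tested. Adjusted p-values are edgeR's unless DESeq2 (1.42.0) is named, and intervals of fold changes rest on the t distribution. Log2 CPM used a prior count of 2. Exon lengths came from GENCODE M21 and upstream sequences from RefSeq (GRCm38.p6). No gene of the set overlapped another gene that held a read. Reads (24436513 to 44266819 per mouse) carry no molecular identifiers, so counting error is a lower limit. Scripts were tested on simulated counts.

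The 10 genes and all lists were chosen with earlier results of these data known. Named genes were the 10, and from each pathway list the 2 with the smallest p in CLP versus sham and any past the FDR; from marker lists the summed level and the 2 most abundant. A gene that this rule gave is not reported here. Likeness was ranked for Slc10a1 and Abcc4. Alternatives were DESeq2 (12 or 8 mice), RLE scaling, library size alone, scaling without acute phase genes, no filter, the 8 mice compared, robust estimation off, a replicate block, leaving out each mouse and, added after seeing the data, dropping the 3 lowest mice.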

Additional observations from a re-analysis of the deposited data

Results flagged for a closer look

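A mouse far from the other 3 of its group was found in 3 of the 30 sets of 4 values (10 genes in 3 groups), where chance alone flags about 1 in 20. Slco1a4 in sham replicate 2 was 24.6 CPM, against 53.1 to 57.2 CPM in the other sham mice. Slc10a1 in sham replicate 4 was 348 CPM, against 415 to 428 CPM in the other sham mice. Slc10a1 in CLP+DCA replicate 3 was 53.5 CPM, against 345 to 404 CPM in the other CLP+DCA mice, and the same mouse held the lowest value of all 12 for 8 of the 10 genes. Causes were not tested.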

How the results depend on the processing

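In CLP versus sham, 218 of 220 fold changes of the 10 genes under 22 alternatives were negative. Both exceptions came with the 3 lowest mice dropped, Slco1b2 at 0.10 and Abcb4 at 0.041. For the 5 genes whose groups did not overlap, leaving out mice could hardly turn the sign. All 220 were negative in CLP+DCA versus sham. Slco1a1 in CLP versus sham ranged from -3.19 to -2.30 and was called in 10 of 22. Among these 10 were the fits without CLP+DCA replicate 3 and without the 3 lowest mice, which support no call. The 367 genes called in that comparison became 1894 with DESeq2, 3428 with DESeq2 on 8 mice, 209 with library size alone (which moved the median of all genes to -0.154), 122 with no filter, 2387 on the 8 mice compared and 1346 with the 3 lowest mice dropped; the genes called of the 10 were then 2, 5, 0, 0, 3 and 2. In CLP+DCA versus CLP the 1 gene called became 136, 80, 0 (8 mice) and 370 (3 lowest dropped). In CLP+DCA versus sham the 5 became 247, 169, 3 (library size), 0 (8 mice) and 93 (3 lowest dropped, with 1 of the 10, Abcb11). The 3 mice were picked for low values of these genes, which narrows the spread by construction, so counts without them support no call.

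Leaving out single mice gave 10 (without sham replicate 3) to 3157 genes (without CLP+DCA replicate 3) in CLP versus sham, 0 to 616 (again without CLP+DCA replicate 3) in CLP+DCA versus CLP and 1 to 11 in CLP+DCA versus sham. Of the 10 genes, 0 to 5, 0 to 1 and 0 were called. CLP+DCA replicate 3 was low in most of the genes described, so counts without it rest on a narrowed spread and support no call. In CLP+DCA versus CLP some fold changes turned sign: Slco1b2 with library size alone (0.052) and over single mice (-0.31 to 0.24), Abcb4 with library size alone (0.0040) and over single mice (-0.22 to 0.0093), Abcb11 (-0.069 to 0.52) and Slco1a4 (-0.20 to 0.64) over single mice, and Abcc4 with the 3 lowest mice dropped (-0.091). The cause was not tested.

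The replicate block called 46 genes in CLP versus sham, with none of the 10 (Slco1a1 adjusted p = 0.109), 4 in CLP+DCA versus CLP and 0 in CLP+DCA versus sham. Same-numbered mice gave no sign of deviating together (12 pairs, r from -0.46 to 0.55, 1 over 0.1). The low livers weigh heavily on such values, as in CLP replicate 2 with CLP+DCA replicate 3 (r = 0.70). What the numbers stand for is not given in the sources used here, so these values cannot settle whether they pair the mice. Abcc4 had the fewest reads (33 to 99 per mouse), and its SE of 0.22 in CLP versus sham was below that of 7 other genes of the set.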

Other observations

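Likeness over the 12 mice was also computed for the genes beyond Slc10a1 and Abcc4, and these neighbours were chosen after their values were seen. Slco1a1 was most like Fdx1 (r = 0.988), Nars2 (0.986), Ugt2b1 (0.985), Ugt1a1 (0.985) and Nat8f1 (0.983), of which Ugt2b1 and Ugt1a1 encode glucuronosyltransferases that make the conjugates ABCC2 exports. With the 3 mice lowest in Slc10a1 left out, r was still 0.951 to 0.978. Abcb4 was most like Stk40 (r = 0.921) and Crot (0.869), the carnitine octanoyltransferase gene 6822 bases away on the opposite strand, and these were 0.964 and 0.865 without the 3 mice. The points share groups and libraries, and no test was made.

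Nr1h4, which encodes the bile acid receptor FXR, was 120 ± 8.13 CPM in sham, 116 ± 13.8 CPM in CLP and 104 ± 23.6 CPM in CLP+DCA (CLP versus sham log2 fold change -0.04, SE 0.16, adjusted p = 0.869). Nr0b2, its target SHP, ranged from 17.9 to 68.8 CPM among sham mice alone. The Kupffer cell markers summed to 186 to 310.2 CPM in sham, 292 to 371 CPM in CLP and 240.2 to 473 CPM in CLP+DCA. The sinusoidal endothelium markers summed to 113 to 147 CPM, 134 to 167 CPM and 109.7 to 162 CPM in the same groups. Single genes weighed heavily on both sums. In CLP versus sham 8 of the 9 Kupffer cell markers had higher estimates, Marco most (means 58.6 and 9.91 CPM). Clec4f was lower (49.1 and 59.4 CPM). Of the 8 endothelium markers 6 had higher estimates, most of all Lyve1 (20.8 and 4.23 CPM) and Pecam1 (17.7 and 8.18 CPM), and Kdr and Clec4g were lower.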
